A study of Homo sapiens with 6 samples.

Results

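The mitochondrial ribosomal protein genes were taken as the protein-coding genes whose symbol is MRPL or MRPS, a number and at most 1 letter. There were 78 of them among 62696 gene rows, 49 MRPL and 29 MRPS, and membership used no measured value. They were read in 6 RNA-seq libraries of C4-2 cells, a human prostate cancer cell line, grown untreated in medium with fetal bovine serum. Of these, 3 were labelled CDK12KO, from a CRISPR-Cas9 line whose genotype is given as CDK12 knockout (the study's title calls it a knockdown), and 3 were labelled VEC, from the control line of wild-type genotype. CDK12 is a kinase that, with cyclin K, phosphorylates RNA polymerase II during elongation. Both groups shared the cell line, the medium and the absence of treatment. The labels do not say whether the libraries of a group came from separate cultures or clones, so the p-values cover the variation among these libraries alone, which could be technical. The effect of the knockout and any other difference between both lines cannot be told apart. The comparison asks how the RNA of the mitochondrial ribosome differed between knockout and vector cells.

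The mitochondrial ribosome translates the few messages encoded by mitochondrial DNA, all of them for subunits of the respiratory chain and ATP synthase. Its RNAs come from mitochondrial DNA, while all of its proteins are encoded in the nucleus, made in the cytosol and imported. By convention MRPL proteins belong to the large subunit, which forms peptide bonds, and MRPS proteins to the small subunit, which reads the message. The convention has exceptions, since MRPS18A and MRPS30 sit in the large subunit, and MRPS36 is now known as a component of the alpha-ketoglutarate dehydrogenase complex. Genes of this kind are active in every dividing cell, and many have short transcripts.

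Depth was 24660798 to 30732841 reads per library, with 16617644 to 21590817 assigned to genes. CDK12 RNA was at 60.7, 56.9 and 56.4 CPM (counts scaled so that every library has the same effective total) in CDK12KO libraries 1 to 3 and at 60.1, 47.9 and 57.0 CPM in VEC libraries 1 to 3. Its log2 fold change was 0.08 ± 0.13 (SE; edgeR's quasi-likelihood test with Benjamini-Hochberg adjustment, adjusted p = 0.709), and a count over the whole gene does not show whether the reading frame was cut. CDK12KO library 2 stood apart: its composition factor was 0.737 against 1.04 to 1.10 in the other 5, and its correlation with CDK12KO 1 and 3 was 0.948 and 0.950, against 0.990 between those 2 (Pearson's r across genes, which are not independent). Results are therefore given with it (6 libraries) and without it (5 libraries). All 10 luminal prostate markers were detected, summing to 7342 to 10270 CPM in CDK12KO and 8649 to 8773 CPM in VEC libraries. Sums for basal cells were 0.283 to 1.70 against 0.559 to 0.768 CPM, for leukocytes 0.0628 to 0.236 against 0.110 to 0.204, for fibroblasts 21.1 to 28.4 against 20.7 to 21.9 and for endothelium 6.60 to 10.3 against 4.55 to 5.11, in CDK12KO and VEC libraries in that order. TP63, DCN, CD3E and PECAM1 were at 0 in every library, and the part of the other markers in the results was not tested.

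Messages for mitochondrial ribosomal proteins took 0.796, 1.09 and 0.809% of counted reads in CDK12KO libraries 1 to 3, against 0.732, 0.756 and 0.735% in VEC libraries 1 to 3. The groups did not overlap, and library 2 lay highest, with a difference of means of 0.156 percentage points. The difference was 0.0616 points without CDK12KO library 2, and 0.307 points when reads were set against the library size scaled by composition. In bulk RNA, more RNA in every cell and more cells that hold it cannot be told apart. MRPL genes took 0.549, 0.778 and 0.560% in CDK12KO against 0.492, 0.512 and 0.497% in VEC libraries. MRPS genes took 0.248, 0.307 and 0.249% in CDK12KO against 0.240, 0.244 and 0.238% in VEC libraries.

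In mean VEC level, 70 of the 78 genes reached 5 CPM, and the median gene was at 91.7 CPM in CDK12KO and 71.4 CPM in VEC libraries. CDK12KO levels here are means of 3 libraries with library 2 included, which raised many of them. MRPL41 had 441, 1484 and 438 CPM in CDK12KO libraries 1 to 3, and MRPS34 had 193, 644 and 189.9 CPM. Levels per length used all annotated exonic bases of a gene, and ranks could differ with another length. For example, MRPS15 had 184.8 CPM in VEC libraries over 2916 exonic bases, but its longest coding transcript has 1006 bases. Ranked by VEC level per length, the highest MRPL gene was MRPL41, at 624 CPM per kilobase of exon in CDK12KO and 289.8 in VEC libraries. MRPL57 followed at 208 and 146 CPM per kilobase, and MRPL37 at 197 and 138. Among MRPS genes, ranked likewise by VEC level, MRPS34, a protein found only in mitochondrial ribosomes, led at 312 CPM per kilobase in CDK12KO and 143 in VEC libraries. MRPS16 followed at 116 and 95.1 CPM per kilobase, and MRPS26 at 128 and 89.6. At the other end stood MRPL2, MRPL38, MRPL46, MRPL53, MRPS5, MRPS18C, MRPS24 and MRPS28, all under 5 CPM in VEC libraries. MRPL46 was at 0.258 and 0.376 CPM per kilobase, MRPS24 at 0.0384 and 0.245, and MRPS18C at 0.339 and 0.306, CDK12KO first in each pair. MRPL53 had 0 counts in all 6 libraries. The authors' counting leaves out reads that fall in more than 1 gene, and 45.2% of the exonic bases of MRPL53 are shared with CCDC142 on the same strand.

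With all 6 libraries, 76 of the 78 genes passed the filter on low counts and were tested, leaving out MRPL53 and MRPS24. By edgeR's quasi-likelihood test 0 of the 76 passed an adjusted p of 0.05, where 0.596% of 15783 genes did. At an unadjusted p under 0.05 there were 20 higher and 2 lower. Of all genes 21.7% passed in either direction and 13% with a positive log2 fold change. DESeq2 called 1 gene, MRPL13 (adjusted p = 0.0430), where it called 6.21% of all genes, and limma-voom called 0, where it called 0.665%. The median log2 fold change over the 76 genes was 0.34 (range −0.89 to 1.58), beside 0.00 over all tested genes. It was 0.11 without composition factors, where the median over all genes was −0.18, and 0.19 with the length and GC correction described below. Of the 76 genes, 61 were positive, beside 50% of all genes. CDK12KO and VEC values did not overlap for 39 genes with CDK12KO higher, or 51.3%, and for 8 with CDK12KO lower, or 10.5%. Over all tested genes these shares were 20.4% and 18.9%.

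Most of that difference in size lay in 1 library. Relative to the VEC mean, the median shift in log2 CPM over the 76 genes was 0.13, 0.69 and 0.13 in CDK12KO libraries 1 to 3, against −0.03, 0.07 and −0.03 in VEC libraries 1 to 3. In CDK12KO library 2, 29 genes were shifted up by at least 1 log2 unit and 4 were shifted down by as much, where 16.8% and 14.3% of all tested genes were. In CDK12KO libraries 1 and 3 none of the 76 genes moved that far in either direction. Of all tested genes 3.01% and 3.33% were up and 2.37% and 2.13% were down by as much there. Among the 76 genes the largest shift in library 2 was that of MRPL12, at 2.70, a stalk protein known to bind the mitochondrial RNA polymerase. The lowest shifts among them were those of MRPS18B and MRPS5, at −1.33 each.

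**Figure D1:**
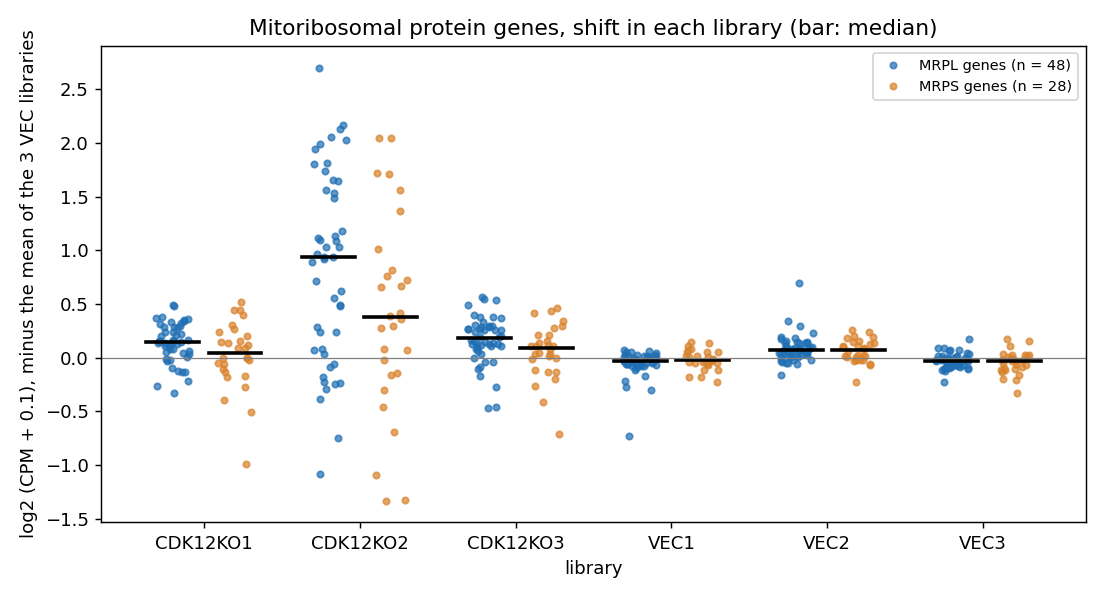
Each point is 1 of the 76 mitoribosomal protein genes tested with 6 libraries, placed by library (x) and by its log2 (CPM + 0.1) minus the mean of the 3 VEC libraries (y), with MRPL genes in blue, MRPS genes in orange and black bars at the medians. CDK12KO2 holds the widest cloud, with its MRPL bar above its MRPS bar, while CDK12KO1 and CDK12KO3 lie close to the VEC libraries.

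Without CDK12KO library 2, the spread between libraries was smaller and 77 genes were tested. By edgeR's quasi-likelihood test 20 of the 77, or 26.0%, rose in CDK12KO cells, where 10.2% of 16339 genes rose. A further 2, or 2.60%, fell, where 8.88% of all genes fell, and 55 did not pass. The 20 increases were small, between 0.20 and 0.51 on the log2 scale. The median over the 77 genes was 0.13 (range −2.08, for the sparsely read MRPS24, to 0.51), beside −0.01 over all tested genes, and 56 were positive. CDK12KO and VEC values did not overlap for 40 genes with CDK12KO higher (51.9%, beside 24.5% of all genes) and for 11 with CDK12KO lower (14.3%, beside 22.7%). Among genes numbered after a bacterial ribosomal protein 11 of 44 rose and 1 fell, with a median of 0.14, and among those with higher numbers 9 of 33 rose and 1 fell, with a median of 0.11. The difference between those classes was not tested. Without CDK12KO library 1 or 3 as well, which leaves 1 CDK12KO library assumed to vary like the VEC libraries, 6 (7.79%) and 5 (6.49%) genes were called, where 7.82% and 6.58% of all genes were. Without VEC library 2 there were 36 (46.8%), where 29.3% of all genes were called. MRPL14, MRPL55 and MRPS21 passed whichever library was left out, and each of the other 19 calls ended without at least 1 library.

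**Figure D2:**
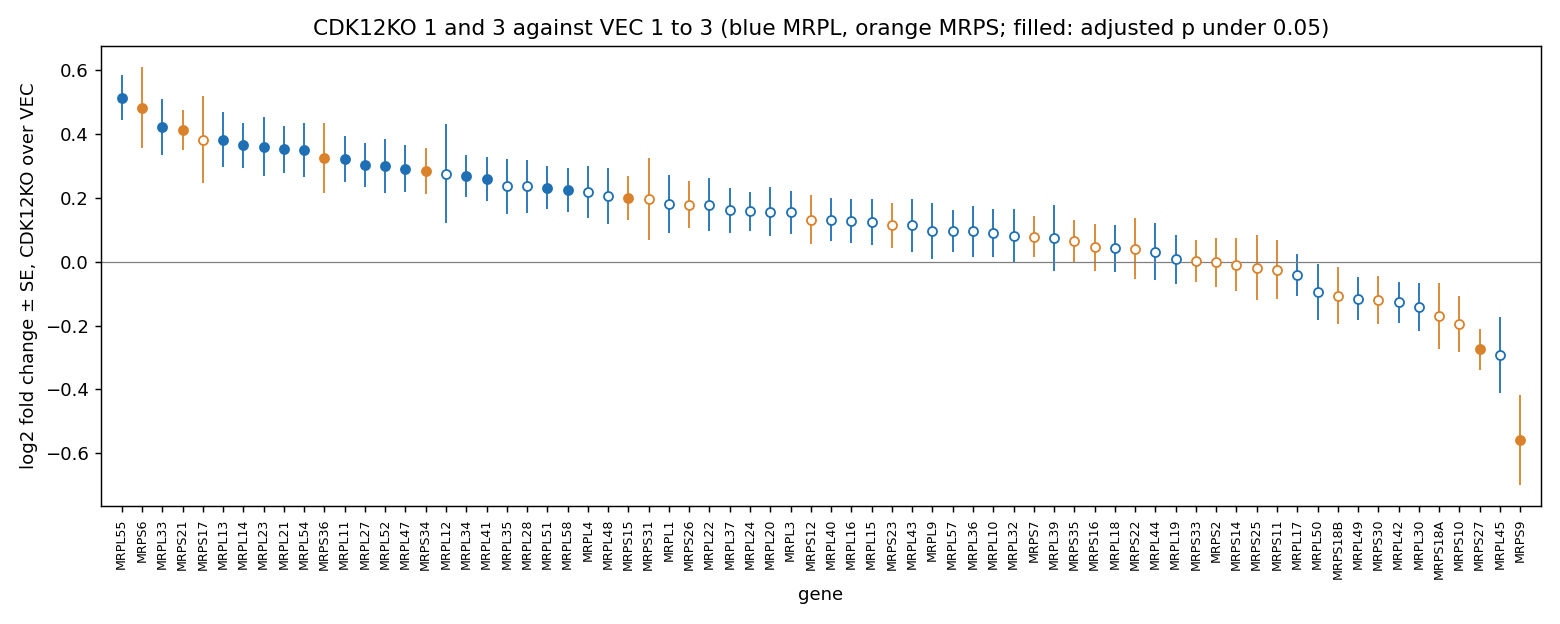
Log2 fold change ± SE of CDK12KO libraries 1 and 3 over the 3 VEC libraries (y) for the 70 genes with at least 5 CPM in VEC libraries, ranked along x, with MRPL genes in blue and MRPS genes in orange. The 22 filled points passed an adjusted p of 0.05, 20 at the left end above 0 and 2, MRPS27 and MRPS9, at the right end below 0.

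Among MRPL genes, 15 of 48 (31.2%) rose and 0 fell without CDK12KO library 2, where 10.2% and 8.88% of all genes did. MRPS18A and MRPS30, of the large subunit, are counted with the MRPS genes. At an unadjusted p under 0.05 there were 23 of the 48 higher and 1 lower. Of all genes 31.7% passed that limit in either direction and 16% with a positive log2 fold change. All 15 calls held under DESeq2 and limma-voom, which called 15.9% and 18.7% of all genes, and no MRPL gene fell under either. MRPL55, a protein of the large subunit found in animals (ENSG00000162910.19, chromosome 1, 228106679 to 228109312, minus strand), changed with the smallest p. It had 104, 325 and 108 CPM in CDK12KO libraries 1 to 3, against 72.0, 76.3 and 74.0 CPM in VEC libraries 1 to 3. All CDK12KO values lay above all VEC values, and library 2 was the highest by far. The log2 fold change was 0.51 ± 0.07 without library 2 (edgeR's quasi-likelihood test, adjusted p = 4.3e-05) and 1.27 ± 0.44 with it (adjusted p = 0.208).

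MRPL14 (ENSG00000180992.7, chromosome 6, 44113454 to 44127457, minus strand) had 118, 318 and 118 CPM in CDK12KO libraries, against 88.4, 88.2 and 97.4 CPM in VEC libraries. Again the groups did not overlap. MRPL14 is the counterpart of a bacterial protein at the interface between the subunits, and its log2 fold change was 0.37 ± 0.07 without library 2 (edgeR's quasi-likelihood test, adjusted p = 0.00125). MRPL33, one of the smallest proteins of the large subunit, had 52.3, 114 and 57.4 CPM in CDK12KO libraries, against 38.7, 40.7 and 42.8 CPM in VEC libraries. Its log2 fold change was 0.42 ± 0.09 (edgeR's quasi-likelihood test, adjusted p = 0.00216), with no overlap. MRPL21 and MRPL27, whose bacterial counterparts are L21 and L27, the second of which reaches the peptidyl transferase centre in bacteria, rose by 0.35 and 0.30 on the log2 scale (edgeR's quasi-likelihood test, adjusted p = 0.00199 and 0.00389).

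MRPL13 was the gene nearest to a call with all 6 libraries, and CDK12KO library 2 did not stand apart in it. It had 62.4, 62.4 and 54.55 CPM in CDK12KO libraries, against 43.0, 46.7 and 44.3 CPM in VEC libraries. The groups did not overlap, and the 3 CDK12KO values lay close together. Its log2 fold change was 0.42 ± 0.11 with all libraries (edgeR's quasi-likelihood test, adjusted p = 0.161) and 0.38 ± 0.09 without library 2 (adjusted p = 0.00437). MRPL41, the most abundant gene of the family per length, had 441, 1484 and 438 CPM in CDK12KO libraries, against 348, 402 and 347 CPM in VEC libraries. It rose by 0.26 ± 0.07 without library 2 (edgeR's quasi-likelihood test, adjusted p = 0.0122), and the call ended after the correction for length and GC content described below (log2 fold change −0.06). MRPL57 and MRPL37, next in level, had log2 fold changes of 0.10 and 0.16 and did not pass (adjusted p = 0.339 and 0.119, same test).

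The stalk recruits translation factors to the large subunit. Of its genes tested, MRPL11 and MRPL54 passed and MRPL10 and MRPL12 did not, and differences between them were not tested. MRPL11 at its base had 112, 274 and 108.5 CPM in CDK12KO libraries, against 88.2, 92.4 and 82.4 CPM in VEC libraries, and rose by 0.32 ± 0.07 without library 2 (edgeR's quasi-likelihood test, adjusted p = 0.00375). MRPL54 had 70.8, 233 and 72.4 CPM in CDK12KO libraries, against 54.6, 62.0 and 51.2 CPM in VEC libraries, and rose by 0.35 ± 0.09 (adjusted p = 0.00695, same test). Neither gene had overlapping groups. MRPL10, which anchors the stalk, had 72.0, 80.7 and 74.0 CPM in CDK12KO libraries, against 70.2, 70.1 and 64.4 CPM in VEC libraries, a log2 fold change of 0.09 that did not pass (adjusted p = 0.449, same test). MRPL12 had 11.3, 75.1 and 16.6 CPM in CDK12KO libraries, against 11.3, 11.5 and 11.5 CPM in VEC libraries, so library 1 lay just below the VEC values and library 2 far above them. Its log2 fold change was 1.58 ± 0.67 with all libraries and 0.28 ± 0.16 without library 2 (edgeR's quasi-likelihood test, adjusted p = 0.231 and 0.234), and 68.2% of its exonic bases are shared with a same-strand gene, ENSG00000262660.

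No MRPL gene fell before the length and GC correction described below, after which MRPL45 (−0.37) and MRPL49 (−0.20) were lower (edgeR's quasi-likelihood test, adjusted p = 0.0193 and 0.0223). MRPL45, which holds the ribosome at the inner membrane near the exit of the peptide tunnel, had 31.9, 18.0 and 31.6 CPM in CDK12KO libraries, against 31.0, 42.1 and 43.1 CPM in VEC libraries. VEC library 1 lay within the CDK12KO range, and the uncorrected log2 fold change of −0.29 without library 2 did not pass (edgeR's quasi-likelihood test, adjusted p = 0.0957). MRPL46 had a log2 fold change of −0.43 and MRPL2 of −0.48, from levels of 0.826 to 5.59 CPM in CDK12KO and 0.664 to 2.96 CPM in VEC libraries, and neither passed (adjusted p = 0.353 and 0.522, same test). With all 6 libraries MRPL2 was at 0.93, since CDK12KO library 2 alone held 5.59 CPM. MRPS30, a large-subunit protein despite its symbol, had 65.6, 57.5 and 65.2 CPM in CDK12KO libraries, against 74.2, 69.8 and 68.3 CPM in VEC libraries. The groups did not overlap, but the log2 fold change of −0.12 without library 2 did not pass (adjusted p = 0.299, same test).

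Among MRPS genes, 5 of 29 (17.2%) rose and 2 (6.9%) fell without CDK12KO library 2, where 10.2% and 8.88% of all genes did. MRPS21 (ENSG00000266472.6, chromosome 1, 150293720 to 150308979, plus strand), the counterpart of bacterial S21, had 171, 535 and 175 CPM in CDK12KO libraries, against 131, 129.9 and 128 CPM in VEC libraries. The VEC libraries were within a few CPM of each other and all CDK12KO values lay above them. The log2 fold change was 0.41 ± 0.06 without library 2 (edgeR's quasi-likelihood test, adjusted p = 0.000148) and 1.18 ± 0.44 with it (adjusted p = 0.215). MRPS34 had 193, 644 and 189.9 CPM in CDK12KO libraries, against 145, 172 and 154 CPM in VEC libraries, with no overlap. It rose by 0.29 ± 0.07 (edgeR's quasi-likelihood test, adjusted p = 0.00831), a call that ended after the length and GC correction (0.09, adjusted p = 0.308). MRPS6 had 19.8, 45.6 and 19.0 CPM in CDK12KO libraries, against 12.2, 13.8 and 15.5 CPM in VEC libraries, and rose by 0.48 ± 0.13 (adjusted p = 0.0115, same test). MRPS36, the alpha-ketoglutarate dehydrogenase component, had 24.9, 35.7 and 28.2 CPM in CDK12KO libraries, against 20.1 to 22.6 CPM in VEC libraries. It rose by 0.33 ± 0.11 without library 2 (adjusted p = 0.0447, same test). Under DESeq2 MRPS36 and MRPS15, another of the 5 that rose, did not pass (adjusted p = 0.0675 and 0.0668). All MRPS calls held under limma-voom. MRPS17 had a log2 fold change of 0.38 ± 0.14 and did not pass (adjusted p = 0.0558, same test).

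The genes that fell were MRPS27 and MRPS9. MRPS27 (ENSG00000113048.19, chromosome 5, 72219409 to 72320646, minus strand), a pentatricopeptide repeat protein of the small subunit, had 192, 206 and 192.5 CPM in CDK12KO libraries, against 233, 241 and 219.9 CPM in VEC libraries. The groups did not overlap, and library 2 lay close to the other CDK12KO libraries. The log2 fold change was −0.27 ± 0.07 without library 2 (edgeR's quasi-likelihood test, adjusted p = 0.00582) and −0.23 ± 0.12 with it (adjusted p = 0.272). MRPS9 (ENSG00000135972.9, chromosome 2, 105037983 to 105099960, plus strand), whose bacterial counterpart contacts tRNA, had 14.2, 13.6 and 11.35 CPM in CDK12KO libraries, against 16.45, 21.45 and 18.5 CPM in VEC libraries. These groups did not overlap either, and the log2 fold change was −0.56 ± 0.14 without library 2 (edgeR's quasi-likelihood test, adjusted p = 0.00859). Over the antisense gene MRPS9-AS1, which shares 8.9% of its exonic bases, reads were set aside as ambiguous. Adding both stranded columns gives such reads to MRPS9 whichever gene they came from, and which gene that was cannot be told apart. MRPS9 then held 2.95 times as many counts over the VEC libraries and had a log2 fold change of −0.16 (adjusted p = 0.198, same test), so its call ended.

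**Figure D3:**
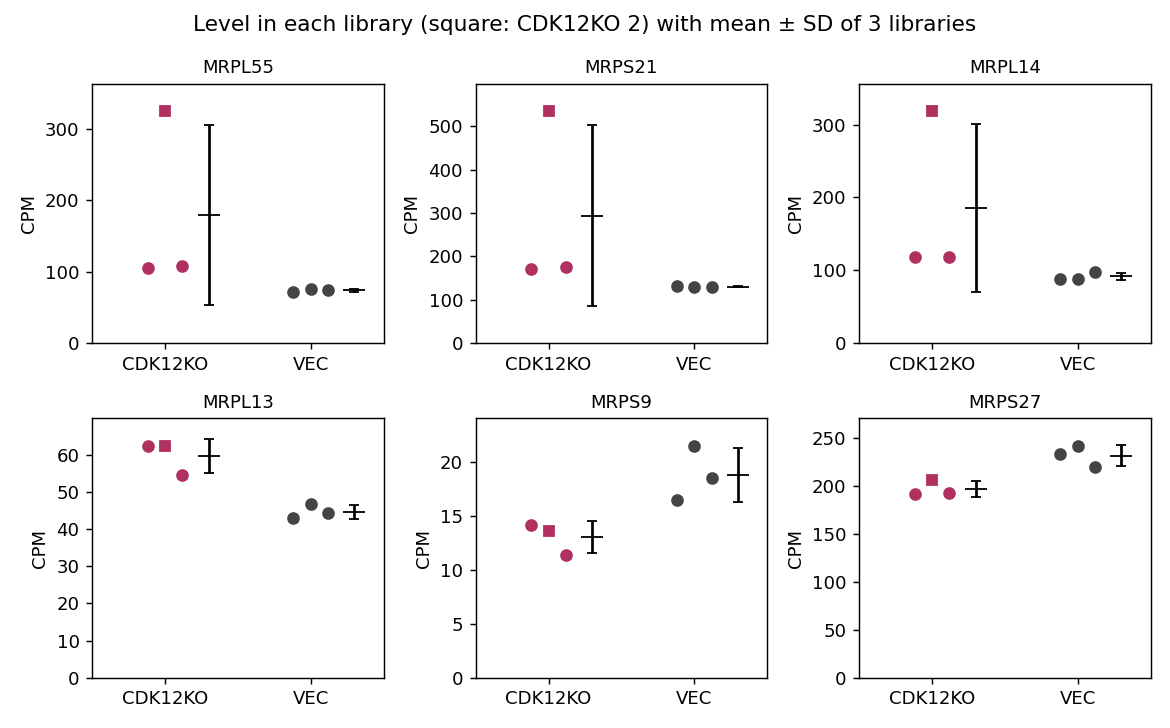
CPM (y) of 6 named genes in each CDK12KO and VEC library (points, with CDK12KO library 2 as a square) with the mean ± SD of 3 libraries beside them. MRPL55, MRPS21 and MRPL14 are higher in all CDK12KO libraries with the square far above, the MRPL13 square lies among the others, and MRPS9 and MRPS27 are lower in all CDK12KO libraries.

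MRPS24 and MRPS5 had fold changes below that of MRPS9 but few reads, and neither passed. MRPS24 had 0.0942, 0 and 0.206 CPM in CDK12KO libraries, against 0.817, 0.447 and 0.658 CPM in VEC libraries, from 6 reads in all CDK12KO and 36 in all VEC libraries. It passed the filter on low counts through the VEC libraries, where it was high, so its fold change is a description. Its log2 fold change was −2.08 ± 0.73 without library 2 (edgeR's quasi-likelihood test, adjusted p = 0.0539), and 23.2% of its exonic bases are shared with the readthrough gene URGCP-MRPS24. MRPS5 had 2.17, 1.70 and 3.30 CPM in CDK12KO libraries, against 4.24, 5.31 and 3.84 CPM in VEC libraries, and a log2 fold change of −0.71 ± 0.25 (adjusted p = 0.0554, edgeR's quasi-likelihood test).

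The paralogs MRPS18A, MRPS18B and MRPS18C encode versions of one bacterial protein, S18, placed at different sites of the mitochondrial ribosome. MRPS18A had 34.2, 23.9 and 35.1 CPM in CDK12KO libraries, against 37.0, 44.3 and 35.3 CPM in VEC libraries. MRPS18B had 79.6, 32.7 and 75.2 CPM in CDK12KO libraries, against 90.5, 87.0 and 71.3 CPM in VEC libraries, and MRPS18C had 2.03, 1.32 and 1.60 CPM in CDK12KO libraries, against 1.63, 1.68 and 1.15 CPM in VEC libraries. The groups overlapped in MRPS18B and MRPS18C, and in all 3 paralogs library 2 was the lowest of the CDK12KO libraries. Without library 2 the log2 fold changes were −0.17, −0.11 and 0.28, and none of the 3 passed by edgeR's quasi-likelihood test (adjusted p = 0.276, 0.456 and 0.620). Counts of MRPS18A and MRPS18C depended on the strand treatment. Of MRPS18C's exonic bases, 40.2% are shared with ABRAXAS1 on the opposite strand, and its counts over the VEC libraries were 83 in the unstranded column and 1637 in the added stranded columns.

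The median of MRPL genes lay above that of MRPS genes in every CDK12KO library. The median shift over the VEC mean was 0.15, 0.94 and 0.18 for MRPL genes in CDK12KO libraries 1 to 3, and 0.04, 0.37 and 0.09 for MRPS genes. The differences were 0.10, 0.56 and 0.09 in CDK12KO libraries, against −0.01, 0.00 and 0.00 in VEC libraries. In fitted log2 fold changes the medians were 0.47 for MRPL and 0.20 for MRPS genes with 6 libraries, a difference of 0.27 (0.12 after the length and GC correction and 0.17 with added stranded columns), and 0.16 and 0.04 with 5 libraries, a difference of 0.12. Of the MRPL genes 83.3% had a positive log2 fold change with 5 libraries and of the MRPS genes 55.2%, beside 48.3% of all tested genes. Moving MRPS18A and MRPS30 to the large subunit and leaving out MRPS36 gave differences of 0.23 with 6 and 0.11 with 5 libraries. The difference between subunits was described and not tested, since its genes are not replicates.

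Transcript length went with the size of the shift. The median transcript length was 1539.5 bases for the 76 genes tested with 6 libraries and 2934 bases for 15250 tested genes with an annotation, while median GC content was 48.7 and 49.3%. Over the 76 genes Spearman's rho between length and shift was −0.392, −0.361 and −0.443 in CDK12KO libraries 1 to 3, and over all genes it was −0.225, −0.393 and −0.284. These are descriptions across genes that share libraries. The 38 shorter transcripts had median shifts of 0.21, 0.99 and 0.23 in CDK12KO libraries 1 to 3, and the 38 longer ones had 0.03, 0.33 and 0.08. With GC content rho was 0.111, 0.439 and 0.244 over the family. A smooth correction for length and GC content in each library lowered the 5-library median of the family to 0.05 and the MRPL minus MRPS difference to 0.05. By edgeR's quasi-likelihood test it left 22 calls, of which 14 were higher and 8 lower, where 19.1% of all genes were called. In both analyses 12 genes rose, among them MRPL55, MRPS21, MRPL14, MRPL33, MRPL13, MRPL11, MRPL54 and MRPS6, and MRPS27 and MRPS9 fell. The 8 increases that ended were MRPL34, MRPL41, MRPL51, MRPL52, MRPL58, MRPS15, MRPS34 and MRPS36. MRPL58 is a peptidyl-tRNA hydrolase built into the ribosome. The genes lower after correction but not before it were MRPL45, MRPL49, MRPS5, MRPS10, MRPS18A and MRPS24. MRPS24 had few reads and passed the filter on low counts through the VEC libraries, where it was high, so its call is a description.

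**Figure D4:**
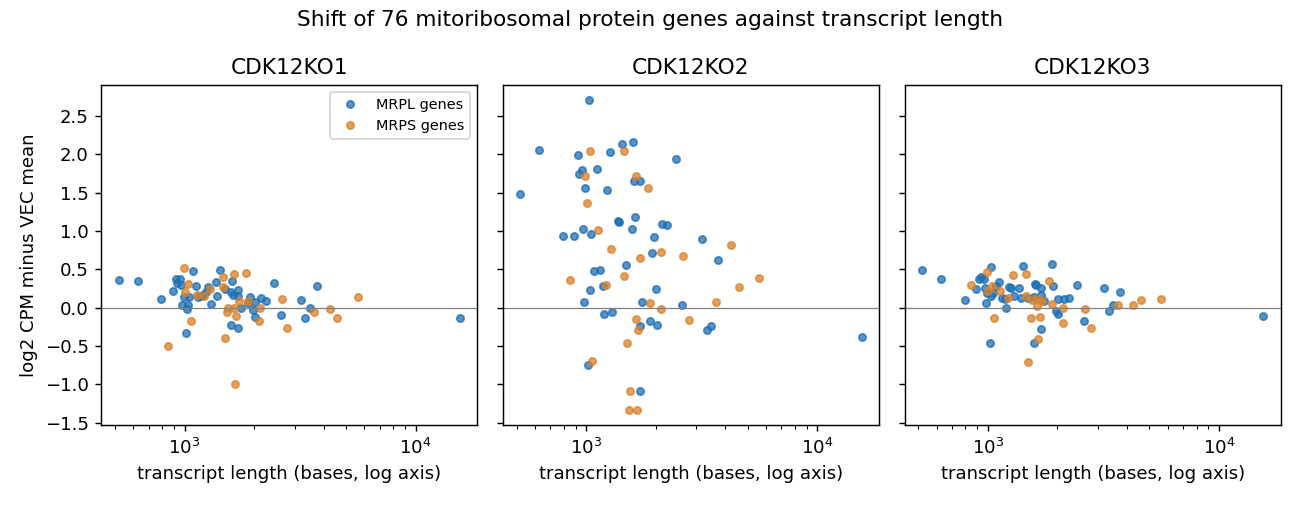
Shift in log2 CPM over the VEC mean (y) against transcript length in bases on a log axis (x) for 76 genes, in CDK12KO1, CDK12KO2 and CDK12KO3, with MRPL genes in blue and MRPS genes in orange. Shorter transcripts tend to lie higher in all 3 panels, and CDK12KO2 has the widest spread.

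Many of these genes overlap others, which lowers their counts. By the annotation used here 41 of the 78 share exonic bases with another gene, 16 of them on the same strand, and 37 share none. For 11 genes the added stranded columns held at least 1.5 times the unstranded VEC count, up to 19.7 times for MRPS18C, 3.61 for MRPS22 and 2.98 for MRPS18A. MRPS34, at 1.75 times, is among these 11 but also among the 37 that share none. MRPL3, which shares none either, stood at 1.175 times. The 37 therefore hold for this annotation alone, and overlaps in the annotation behind the counts were not tested. With the added stranded columns 25 genes were called in the 5-library comparison, 22 higher and 3 lower, and of the 22 calls 20 were among them. In that analysis 20.6% of all genes were called. Ambiguous reads made up 12.2, 14.4 and 12.2% of reads in CDK12KO libraries 1 to 3, against 11.6, 11.2 and 11.15% in VEC libraries. Their part in the results was not tested beyond the added columns.

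A neighbouring start was common. Of the 78 genes 18, or 23.1%, had a protein-coding neighbour on the opposite strand with its start within 1000 bases, compared with 8.18% of 19951 protein-coding genes. MRPL46 and MRPS11 are each other's neighbour, and 16 pairs with a partner outside the family were tested without library 2. By edgeR's quasi-likelihood test 3 partners (18.8%) rose and 2 (12.5%) fell, beside 10.2% and 8.88% of all genes. MRPL54 and its partner APBA3 rose together, by 0.35 and 0.34 on the log2 scale (adjusted p = 0.00695 and 0.0295). MRPS34 rose by 0.29 while EME2, a DNA repair nuclease subunit with a start 52 bases away, fell by 0.52 (adjusted p = 0.00831 and 0.00513, same test). The added stranded columns held 1.75 times as many VEC counts for MRPS34, and which gene the further reads came from cannot be told apart. With those columns its log2 fold change was 0.25 (adjusted p = 0.0146, same test). Partners of genes that did not pass themselves moved as well: NDUFS6, a complex I subunit beside MRPL36, rose by 0.25 (adjusted p = 0.0268), MITD1 beside MRPL30 rose by 0.46 (adjusted p = 0.0481), and TCP1, a chaperonin subunit beside MRPL18, fell by 0.19 (adjusted p = 0.0414), all by the same test. Over the 16 pairs the median log2 fold change was 0.27 for the mitoribosomal genes and −0.08 for the partners.

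Promoter sequence was read for 69 of the 78 genes from RefSeq (GRCh38.p14), in windows of 250 bases before to 50 bases after the start. The stretches upstream of MRPL55 and MRPS21 are shown because these are the genes with the smallest p without library 2, 1 from each symbol class. Both read 5′ to 3′ on the gene's strand and end at the base before the RefSeq start. The MRPL55 stretch is chr1:228109300-228109549 on the minus strand and the MRPS21 stretch is chr1:150293611-150293860 on the plus strand. Capitals mark GGGCGG, the core of the Sp1 motif, or CCGGAAG, the core bound by ETS family factors, on either strand.
MRPL55: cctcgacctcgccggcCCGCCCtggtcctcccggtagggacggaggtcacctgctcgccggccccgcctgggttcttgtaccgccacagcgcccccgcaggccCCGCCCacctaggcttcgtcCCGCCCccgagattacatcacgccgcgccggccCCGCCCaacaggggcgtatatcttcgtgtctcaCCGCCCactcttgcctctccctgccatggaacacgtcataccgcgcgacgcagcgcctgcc
MRPS21: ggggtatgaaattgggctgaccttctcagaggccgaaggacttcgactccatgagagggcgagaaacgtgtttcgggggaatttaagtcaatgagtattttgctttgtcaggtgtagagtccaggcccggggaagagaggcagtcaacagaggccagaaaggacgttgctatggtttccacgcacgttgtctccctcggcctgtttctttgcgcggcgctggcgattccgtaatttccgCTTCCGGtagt
The MRPL55 stretch held 5 Sp1 cores and no ETS core, and the MRPS21 stretch held 1 ETS core that ends close to the start.

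The ETS core CCGGAAG was found on either strand in 29 of the 69 promoters (42.0%), beside 14.2% of 15843 protein-coding promoters of the same length. The core AAGATGGC, bound by YY1, was found in 20 (29%), beside 3.91%. At least 1 of these was present in 41 (59.4%), beside 17.2%, and both were present in 8. The Sp1 core GGGCGG was found in 42 (60.9%), beside 58.5%, and the palindromic core bound by NRF1 in 1 (1.45%), beside 1.75%. TATAAA was found in 2 (2.90%), beside 9.63%. Of the 16 promoters that belonged to genes called higher without library 2, 9 (56.2%) held the ETS core and 3 (18.8%) the YY1 core. The last 3 letters of the ETS core are the first 3 of the YY1 core, but 0 of the 69 promoters held the overlapping pair. A match describes letters in the window.

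Windows around single cores are shown for 7 of the genes that rose without library 2, chosen after their values were seen. They are examples of the letters and their distance from the start. Such upstream windows were found in 23 genes for the ETS core and in 5 for the YY1 core. Many of these genes were not called higher, among them MRPL3, MRPL20 and MRPS10 (ETS) and MRPL32 and MRPL36 (YY1). Whether a core goes with the rise was not tested. Each is read on the strand where the core reads in capitals, with 10 bases to either side. On the gene's own strand the ETS cores shown begin at position −8 in MRPL27, MRPL33 and MRPL58 and at −39 in MRPL47, counted from the RefSeq start. On the opposite strand they lie at −21 in MRPL54 and −29 in MRPS34. Further ETS cores lie at −52 in MRPL27, at −193 in MRPL58 and at −71 and −19 in MRPS34, and MRPL51, which also rose, has them at −104 and −119. The positions are chr17:50373176-50373202 (minus strand) for MRPL27, chr2:27771701-27771727 (plus) for MRPL33, chr17:75012652-75012678 (plus) for MRPL58, chr19:3762651-3762677 (minus) for MRPL54, chr3:179604661-179604687 (minus) for MRPL47 and chr16:1773147-1773173 (plus) for MRPS34. The YY1 core shown for MRPL52 is at chr14:22829779-22829806 (plus), beginning 98 bases before the start. Further YY1 cores lie at −64 in MRPL52 and, on the opposite strand, at −92 in MRPL47.
MRPL27: cttttcgagaCCGGAAGtgagtgatcg
MRPL33: gggccgtgccCCGGAAGcagttgttgt
MRPL58: gaagcgcccgCCGGAAGcagtcgcaag
MRPL54: gtgcacgtttCCGGAAGacgtcagtgg
MRPL47: gcttgagacgCCGGAAGtgacgctatc
MRPS34: ccggaagtcaCCGGAAGaggccggtgt
MRPL52: acgatgacccAAGATGGCggagccgtga

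**Figure D5:**
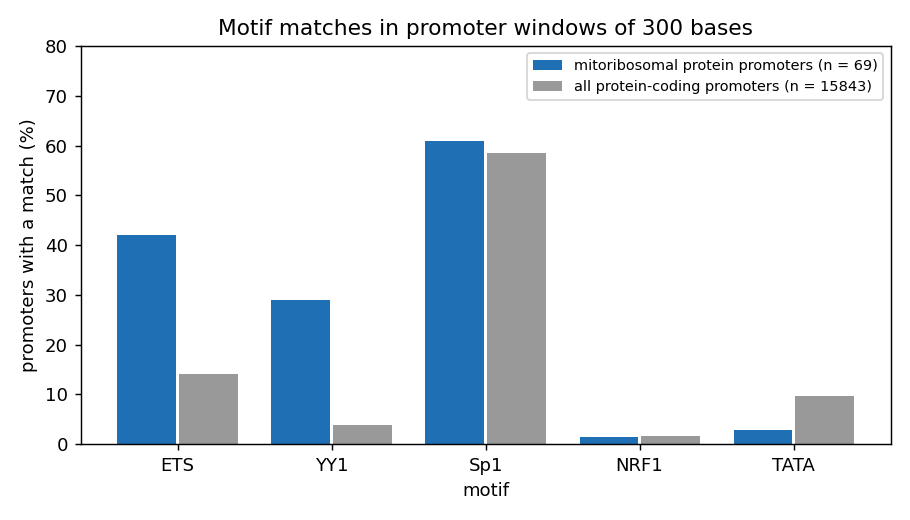
Share of promoter windows (300 bases) with at least 1 match to each motif on either strand (y, %), for 69 mitoribosomal protein genes (blue) and 15843 protein-coding genes (grey). The blue bars for ETS (42.0%) and YY1 (29%) stand above the grey ones (14.2 and 3.91%), while the Sp1 and NRF1 bars are close.

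Other genes of mitochondrial translation were read in the same comparison without library 2, by edgeR's quasi-likelihood test, where 10.2% of all genes rose and 8.88% fell. Of 5 mitoribosomal proteins with other symbols 2 rose and 0 fell, with 2 higher and 0 lower at an unadjusted p under 0.05 (median 0.11, beside −0.01 over all genes). CHCHD1, a small-subunit protein, had 104, 224 and 100.4 CPM in CDK12KO libraries, against 78.4, 77.2 and 82.6 CPM in VEC libraries. CHCHD1 rose by 0.36 ± 0.07 (adjusted p = 0.0014, same test), and AURKAIP1, of the small subunit, rose by 0.29 ± 0.07 (adjusted p = 0.00417). DAP3, the small subunit's GTP-binding protein, and GADD45GIP1, a large-subunit protein, had 0.07 and 0.11 and did not pass (adjusted p = 0.513 and 0.617).

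Of 13 mitochondrial translation factors 1 rose and 1 fell (7.69% each), with a median of −0.14. TUFM, the elongation factor Tu that brings aminoacyl-tRNA to the ribosome, rose by 0.18 ± 0.06 (edgeR's quasi-likelihood test, adjusted p = 0.0449). TACO1, an activator of translation of cytochrome oxidase subunit I, fell by 0.43 on the log2 scale (adjusted p = 0.0488, same test). Of 25 tested assembly and rRNA factors 4 rose (16%) and 2 fell (8%), with a median of 0.02. DHX30, an RNA helicase, RPUSD3, a pseudouridine synthase, and MALSU1, an assembly factor of the large subunit, rose by 0.30, 0.37 and 0.30 (adjusted p = 0.00602, 0.00742 and 0.0289, same test). GTPBP10, a GTPase of large-subunit assembly, fell by 0.39 (adjusted p = 0.00578).

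Of 17 tested mitochondrial aminoacyl-tRNA synthetases 1 rose (5.88%) and 3 fell (17.6%), with a median of −0.05. MARS2, which charges methionine tRNA, had 36.05, 10.9 and 33.6 CPM in CDK12KO libraries, against 53.0, 49.7 and 51.9 CPM in VEC libraries. All CDK12KO values lay below all VEC values, and MARS2 fell by 0.57 on the log2 scale (edgeR's quasi-likelihood test, adjusted p = 0.000164). EARS2 and AARS2, for glutamate and alanine, fell by 0.31 and 0.32 (adjusted p = 0.00636 and 0.0104, same test). GARS1, which serves both cytosol and mitochondria, rose by 0.36 ± 0.07 (adjusted p = 0.00089). With all 6 libraries 0 genes of any of these lists passed by the same test, where 0.596% of all genes did. Unadjusted p under 0.05 then held for 2 higher and 0 lower among the 5 proteins and 0 and 1 among 13 translation factors. Among 25 assembly factors it held for 4 higher and 1 lower, and among 17 synthetases for 1 and 2. Over all genes 13% passed that limit with a positive log2 fold change and 21.7% in either direction.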

How the data were processed

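RNA-seq was made from 3 CDK12KO and 3 VEC libraries with an RNeasy extraction and a SMARTer mRNA kit, per the labels' protocols. FastQC, STAR and GRCh38 are named per the submitters' processing notes with no version, and no source used here gives the annotation release. The deposited files hold the authors' raw, whole-number counts for each gene, in an unstranded and 2 stranded columns, with 4 summary rows that were left out of library sizes and tests. The unstranded column was used, since the stranded columns had ratios of 0.958 to 0.984, and reads of antisense partners cannot be told apart in it. Titles gave each library's group and number.

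Names came from a table by identifier (62672 of 62696 rows matched), coordinates, lengths and GC content from the GENCODE 29 annotation of GRCh38, possibly another release than the authors used, and promoters from RefSeq. The robust quasi-likelihood test of edgeR 4.0.16 (R 4.3.3) was run over all genes after filterByExpr and TMM scaling, p-values were adjusted by Benjamini and Hochberg's method and called under 0.05, once with 6 and once with 5 libraries. The SE is the log2 fold change divided by the square root of F. CPM used TMM factors, and log2 CPM a prior count of 2. A spline with 5 degrees of freedom served for the length and GC correction. Alternatives included DESeq2 1.42.0 and voom from limma 3.58.1, and the test was tried on simulated counts. The genes, companion lists and rule for named genes were chosen with earlier results of these data known. The rule names genes with the smallest p, extreme fold changes, extreme levels per length, paralogs, stalk genes and up to 4 genes from each companion list. CPM carry counting error, which at few reads is large, and PCR reads are not independent molecules.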

Additional observations from a re-analysis of the deposited data

How the results depend on the processing

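With all 6 libraries the number of genes called was 0, 1 with DESeq2, and between 0 and 22 when 1 library was left out, 22 being the count without CDK12KO library 2. Without library 2, the 22 calls became 41 with a replicate block, where 33.9% of all genes were called, and 34 with a replicate block and the length and GC correction, where 26.6% were, and ranged from 5 to 36 when a further library was left out, where 6.58 to 29.3% of all genes were called. The labels state no block, so the main test had none. Correlations of deviations were 0.135, 0.194 and 0.084 between libraries of the same number, and −0.193 to 0.076 between the others. They were low, although every library correlated best with its own number. Whether the replicate numbers pair the libraries was not settled. The 5-library median of 0.13 was 0.13 with RLE factors and with DESeq2, 0.15 with upper-quartile factors and with the replicate block, 0.11 without composition factors, 0.14 with no filter, 0.12 with added stranded columns, 0.046 with the length and GC correction, 0.054 with that and the replicate block, and 0.12 to 0.15 with a library left out. The 5-library MRPL minus MRPS difference of 0.12 was 0.14 with the replicate block, 0.10 with added stranded columns, 0.053 with the length and GC correction, and 0.10 to 0.15 with a library left out. Without composition factors the 6-library median over all genes moved to −0.18. Signs turned with 6 libraries for MRPS9 and MRPS18A with added stranded columns (0.096 and 0.20), MRPL10 and DAP3 without composition factors (−0.041 and −0.065) and MTIF2, a translation initiation factor, with the length and GC correction (0.013). With 5 libraries they turned for MRPL41, MRPS26 and GADD45GIP1 with the length and GC correction (−0.063, −0.0008 and −0.019). With 1 library left out, 6-library fold changes ranged from −0.48 to 1.38 for MRPL2, −0.024 to 0.28 for MRPS18C and −0.20 to 0.033 for MTIF2, and 5-library ones from −0.027 to 0.11 for MRPS16 and −0.021 to 0.53 for MRPL12. The cause was not tested. Of the named genes' alternatives with 5 libraries, 609 kept side and direction, 27 newly passed and 60 no longer passed. Depth limits the genes under 5 CPM, where a few reads set the fold change.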
